A study of Mus musculus with 67 samples.

Results

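The Groucho/TLE co-repressors are the mouse genes Tle1, Tle2, Tle3, Tle4 and Tle6, to which Aes, the amino-terminal enhancer of split gene that RefSeq now calls Tle5, is added as the short member of the family. The 6 genes were selected by name, as the rows of the RNA-seq tables that carry these symbols, out of 46983 gene IDs in each table. The family was proposed with its values in these 14 libraries in view, so the level of each member in each group is given as a description and no p-value is printed for a member.

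Groucho/TLE proteins bind no DNA of their own. They are brought to chromatin by transcription factors, among them the TCF/LEF factors of the Wnt pathway, HES, RUNX and Engrailed proteins and several T-box factors, through short peptide motifs that dock on the carboxy-terminal WD40 propeller or through the amino-terminal Q domain, by which TLE proteins also form oligomers. Once there they recruit histone deacetylases and silence the target. Tle1 to Tle4 encode the full-length co-repressors, Aes encodes a product that keeps the amino-terminal part without the propeller and can act against the full-length proteins, and Tle6 encodes a divergent member best known from the oocyte and the early embryo.

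All libraries came from forelimb buds of mouse embryos, and GLI3, a zinc finger factor that is processed into the main repressor of Hedgehog target genes in the limb, was present or absent. The mutant embryos, Gli3-/-, carried the Gli3 Xt-J allele, and the animals were kept on a Swiss Webster background. The early libraries held whole limb buds of E9.25 embryos with 21 to 23 somites, before Hedgehog signalling starts, with about 4 pairs pooled for each library (3 WT, 4 Gli3-/-). The later libraries held anterior limb buds of E10.5 embryos with 32 to 35 somites, 2 pairs for each by the sample annotation (4 WT, 3 Gli3-/-). The paper's methods instead give about 4 pairs for each library at both stages. The stage and the part of the bud that was taken changed together, so their contributions cannot be told apart. In pooled tissue, a lower level in every cell and fewer cells that express a gene also cannot be told apart. Limb buds of several embryos were pooled for a library, and the p-values measure only the spread between these pools. The Xt-J allele is a deletion within Gli3 present in all cells of the embryo, so it is not specific to the limb.

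Values are TPM, the share of a library's transcripts that a gene takes, which are scaled for transcript length and so allow levels of different genes to be set beside each other. The estimated depth was 38.1 to 56.8 M reads (M, mega), and at 1 TPM a transcript received an estimated 20.7 to 29.3 reads for each kb of its length. Between 13276 and 15816 genes reached 1 TPM. Gli3 itself, whose single value per library includes any part the Xt-J deletion leaves, stood at 73.4 to 89.7 TPM in E10.5 WT and 38.7 to 40.9 TPM in E10.5 Gli3-/- libraries. At E9.25 it was 14.3 to 20.8 TPM in the Gli3-/- libraries and 44.2 and 44.6 TPM in WT replicates 1 and 3. In contrast, Gli3 was at 15.8 TPM in the library labelled E9.25 WT replicate 2, inside the range of the mutants, and that library also held the fewest genes at 1 TPM, so the members' differences and the Aes ratio are also given without it. All 5 markers of limb mesenchyme (Prrx1, Tbx5, Twist1, Hand2, Msx1) reached 1 TPM in each group, with a summed level of 562 to 852 TPM over the 14 libraries.

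Aes, Tle2 and Tle6 lie side by side on chromosome 10, within 41.6 kb. In the coordinates of the tables, of build mm10 by the processing notes, Aes (ENSMUSG00000054452.9) occupied 81559494 to 81566362 on the plus strand, Tle2 (ENSMUSG00000034771.15) 81574561 to 81590845 on the plus strand and Tle6 (ENSMUSG00000034758.12) 81590904 to 81601073 on the minus strand, so that Tle2 and Tle6 end 58 bases apart. The other members stand alone and are longer: Tle1 (ENSMUSG00000008305.18) spans 83.8 kb on chromosome 4 from 72117142 to 72200919, Tle3 (ENSMUSG00000032280.16) 46.1 kb on chromosome 9 from 61372366 to 61418497, and Tle4 (ENSMUSG00000024642.16) 150.0 kb on chromosome 19 from 14448072 to 14598051. Genes listed on the opposite strand inside Tle1 (Gm11250) and Tle2 (Gm15917) were at 0 TPM in all 14 libraries.

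The RefSeq start windows of Tle2 and Tle6 (build GRCm38.p6) are shown because both genes were lower in E10.5 Gli3-/- limb buds than in WT. Each is the 250 bases before the start on the gene's own strand, chr10:81575037-81575286 on the plus strand for Tle2 and chr10:81600901-81601150 on the minus strand for Tle6, and capitals mark GGGCGG, the core of the GC box bound by Sp and Klf factors, or its reverse complement. These starts lie 726 bases (Tle2) and 173 bases (Tle6) inside the genes as the tables span them. A second RefSeq start of Tle6, with the window chr10:81597368-81597617, lies 3706 bases inside, and that window held the GC box 0 times, at 59.6% G and C.
Tle2: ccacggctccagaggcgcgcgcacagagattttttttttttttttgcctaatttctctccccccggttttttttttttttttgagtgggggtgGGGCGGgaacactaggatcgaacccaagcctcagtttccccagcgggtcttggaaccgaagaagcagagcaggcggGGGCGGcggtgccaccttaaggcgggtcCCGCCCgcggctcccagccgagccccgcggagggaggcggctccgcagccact
Tle6: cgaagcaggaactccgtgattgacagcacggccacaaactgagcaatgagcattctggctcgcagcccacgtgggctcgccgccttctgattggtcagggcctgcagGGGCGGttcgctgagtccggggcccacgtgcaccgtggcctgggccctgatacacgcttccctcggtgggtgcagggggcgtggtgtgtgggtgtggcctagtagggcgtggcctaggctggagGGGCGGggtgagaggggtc
In the windows printed, Tle2 held the GC box 3 times and Tle6 2 times, at 61.6% and 67.2% G and C, against a median of 52.4% over the 32851 windows of the table. The GC box was present in 5 of 7 windows listed for 5 of the members and in 32.7% of all windows. The GLI core GACCACCCA was present in none of the 7 and in 0.23% of all windows, the TCF/LEF core CTTTGA in none of the 7 and 13.8% of all, and GTGGGAA, the RBPJ core, in none of the 7 and 5.42% of all, with both strands searched in each case. A match or its lack describes these letters in these windows alone.

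Tle3 was the most abundant full-length member in every group. In WT libraries it stood at 81.8, 41.0 and 64.0 TPM at E9.25 and at 77.1, 62.5, 84.8 and 72.0 TPM at E10.5. In Gli3-/- libraries it was 71.5, 115, 119 and 90.2 TPM at E9.25 and 69.5, 91.3 and 66.0 TPM at E10.5. All 4 groups overlapped, and the lowest of the 14 values came from the library labelled E9.25 WT replicate 2. Between the stages the mean TPM of Tle3 was 1.19 times as high in WT and 0.764 times as high in Gli3-/- libraries.

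Tle1 followed stage in both genotypes and genotype at the early stage. It measured 11.7, 10.8 and 12.96 TPM in E9.25 WT, and 18.2, 21.3, 20.9 and 17.8 TPM in E9.25 Gli3-/- limb buds, where every mutant library lay above every WT library. At E10.5 the values were 32.7, 28.6, 37.9 and 34.3 TPM in WT and 30.4, 38.5 and 32.2 TPM in Gli3-/- libraries, and the genotypes overlapped. Tle4 varied less. Its values were 17.3, 10.8 and 14.9 TPM in E9.25 WT, 15.4, 29.3, 21.1 and 16.8 TPM in E9.25 Gli3-/-, 17.7, 19.2, 19.9 and 21.2 TPM in E10.5 WT and 20.6, 24.7 and 22.4 TPM in E10.5 Gli3-/- libraries. Every E10.5 WT library was above every E9.25 WT library for Tle4, and the other group pairs that share a stage or a genotype overlapped. For this and the separations of groups named for other members, the shares over all genes tested are given with the fits below.

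Tle2 was the least abundant full-length member. It was near the floor at E9.25, at 1.62, 0.894 and 2.72 TPM in WT and 0.931, 0.495, 1.04 and 0.831 TPM in Gli3-/- libraries, which overlapped. At E10.5 it reached 9.05, 7.997, 7.38 and 10.3 TPM in WT but 3.15, 3.51 and 2.20 TPM in Gli3-/- libraries, and all mutant values were below all WT values. The mean in E10.5 Gli3-/- limb buds was 0.340 times that in WT, and both E10.5 groups stood above both E9.25 groups except that the mutant minimum of 2.20 TPM was under the E9.25 WT maximum of 2.72 TPM.

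Tle6, the divergent member, was low throughout. At E9.25 it was 3.60, 3.55 and 5.85 TPM in WT and 0.941, 0.598, 1.34 and 2.50 TPM in Gli3-/- libraries. At E10.5 it was 5.94, 5.36, 5.07 and 5.93 TPM in WT and 3.60, 3.55 and 2.97 TPM in Gli3-/- libraries. The mutant libraries lay below the WT libraries at both stages, with a mean of 0.311 times WT at E9.25 and 0.605 times WT at E10.5.

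Aes showed the widest range of the family. In E9.25 limb buds it measured 20.6, 26.0 and 28.6 TPM in WT and 17.1, 18.1, 14.7 and 19.5 TPM in Gli3-/- libraries. In E10.5 limb buds it measured 196, 174, 218 and 203 TPM in WT and 145, 163 and 122 TPM in Gli3-/- libraries. Its mean was 7.90 times as high at E10.5 as at E9.25 in WT and 8.24 times as high in Gli3-/- limb buds, and at each stage every Gli3-/- library was below every WT library, at 0.693 and 0.723 times the WT mean. Muscle progenitor markers moved with these levels: the summed TPM of Pax3, Lbx1 and Myf5 was 2.22 to 3.72 in E9.25 WT, 0.33 to 1.27 in E9.25 Gli3-/-, 29.4 to 37.1 in E10.5 WT and 19.8 to 28.5 in E10.5 Gli3-/- libraries. Their part in the Aes values was not tested.

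**Figure D1:**
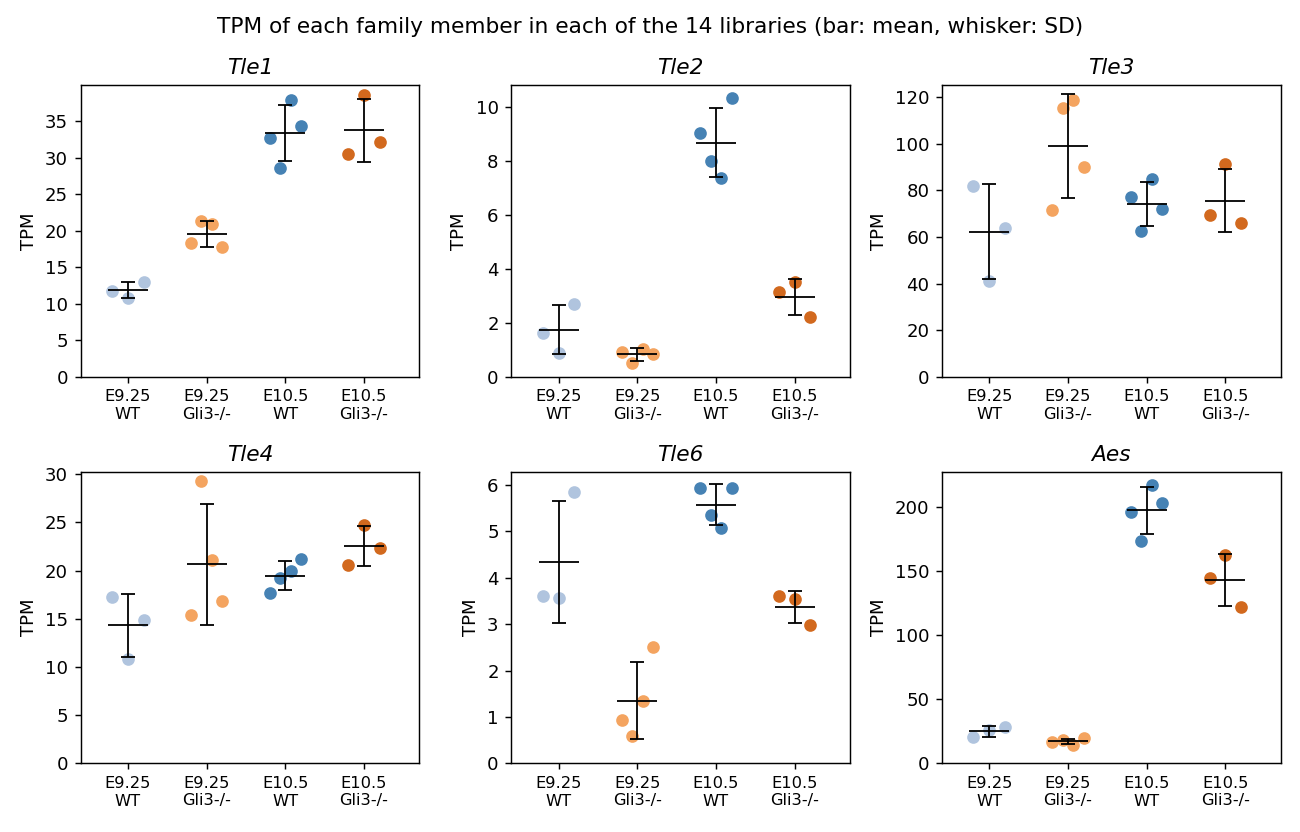
TPM of the 6 genes (one panel each, linear axis from 0) in the 14 libraries by group; points are libraries, the horizontal bar is the mean and the whisker the SD. Aes sits at 14.7 to 28.6 TPM at E9.25 and at 122 to 218 TPM at E10.5, while the groups of Tle3 overlap.

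The order of the levels changed between the stages. In E9.25 WT limb buds Tle3 came first at 62.3 ± 20.5 TPM (SD, n = 3), followed by Aes at 25.0 ± 4.10 TPM. Tle4 (14.3 ± 3.28 TPM) and Tle1 (11.8 ± 1.08 TPM) overlapped as neighbours in this order, and Tle6 and Tle2 came last at 4.33 ± 1.31 and 1.74 ± 0.918 TPM. In E9.25 Gli3-/- limb buds Tle3 led again, at 98.9 ± 22.3 TPM (SD, n = 4), but Aes, at 17.4 ± 2.03 TPM, took the fourth place after Tle4 (20.7 ± 6.27 TPM) and Tle1 (19.6 ± 1.79 TPM), and these neighbours overlapped, as did Tle6 and Tle2.

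At E10.5 Aes was first in both genotypes. Its mean was 198 ± 18.2 TPM (SD, n = 4) in WT and 143 ± 20.5 TPM (SD, n = 3) in Gli3-/- limb buds, ahead of Tle3 at 74.1 ± 9.37 and 75.6 ± 13.7 TPM. Tle1, at 33.4 ± 3.86 and 33.7 ± 4.27 TPM, and Tle4, at 19.5 ± 1.48 and 22.6 ± 2.08 TPM, came next without overlap between neighbours. Tle2 stood above Tle6 in WT (8.69 ± 1.30 against 5.58 ± 0.433 TPM), and the pair overlapped in Gli3-/- limb buds (2.95 ± 0.679 against 3.37 ± 0.347 TPM).

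As a share of the summed TPM of the 6 genes, Aes made up 15.0% to 27.9% of the family in E9.25 WT libraries, 8.27% to 13.8% in E9.25 Gli3-/-, 57.9% to 58.6% in E10.5 WT and 49.2% to 53.2% in E10.5 Gli3-/- libraries. The share of Tle3 ran from 44.0% to 59.9% in E9.25 WT and from 20.7% to 22.8% in E10.5 WT libraries. When the library labelled E9.25 WT replicate 2 was left out, the E9.25 WT shares were 15.0% and 22.2% for Aes and 59.9% and 49.6% for Tle3. The ratio of Aes to the sum of Tle1, Tle2, Tle3 and Tle4 sets the short member against the full-length members within a library. It was 0.183, 0.410 and 0.302 in E9.25 WT, and 0.161, 0.109, 0.0909 and 0.155 in E9.25 Gli3-/- limb buds. At E10.5 it was 1.44, 1.47, 1.45 and 1.47 in WT and 1.17, 1.03 and 0.993 in Gli3-/- limb buds. Neither pair of genotypes overlapped. The highest of the E9.25 WT ratios came from the library labelled E9.25 WT replicate 2, and without it the mean of that group was 0.243 in place of 0.298.

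The full-length sum behind this ratio is given for each group, without a test. The summed TPM of Tle1 to Tle4 averaged 90.2 ± 24.8 (SD, n = 3) for WT at E9.25 but 140.0 ± 29.0 (SD, n = 4) for Gli3-/- limb buds, and their ranges overlapped at 63.5 to 112 and 106 to 167 TPM. The lowest sum came from the library labelled E9.25 WT replicate 2, and the other E9.25 WT libraries stood at 112 and 94.6 TPM. At E10.5 it was 136 ± 13.1 TPM (SD, n = 4) in WT and 135 ± 20.1 TPM (SD, n = 3) in Gli3-/- limb buds, 0.994 times as high.

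**Figure D2:**
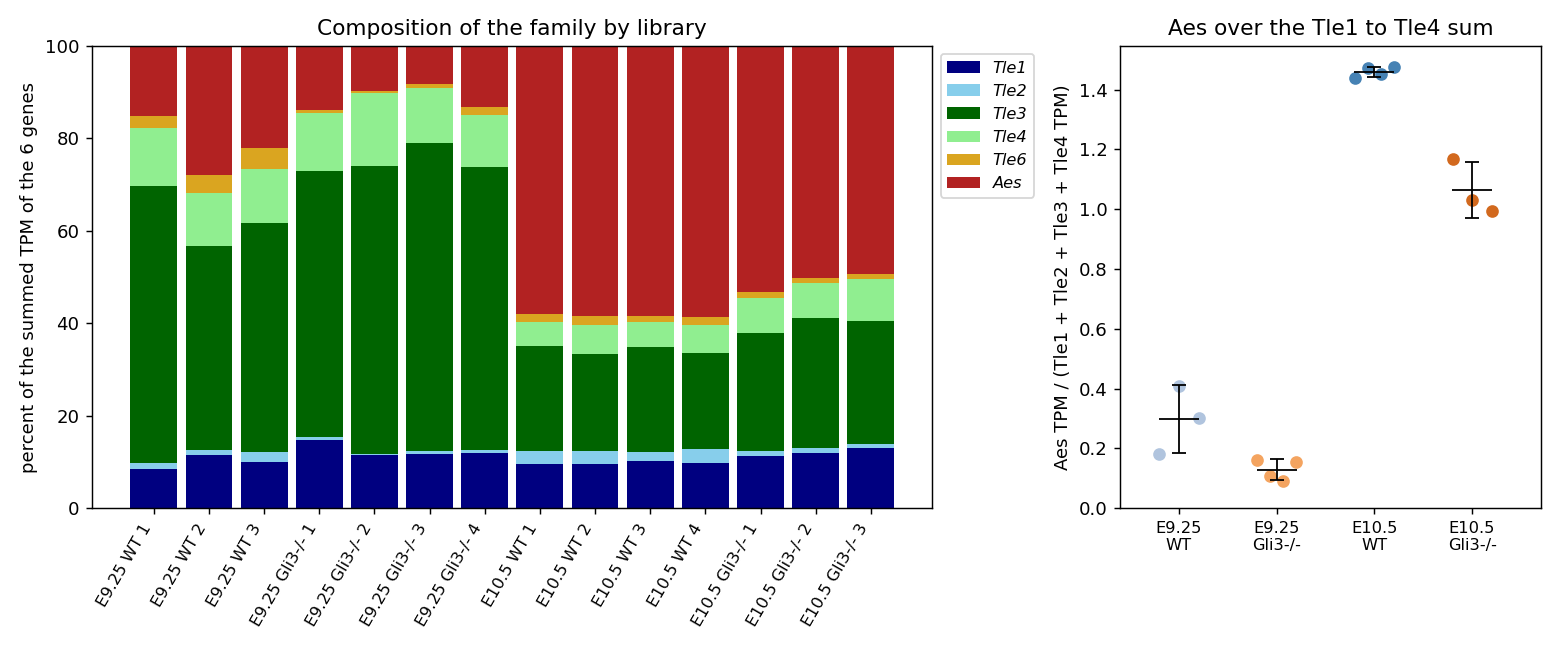
Left, share of each gene in the summed TPM of the 6 genes (percent, stacked bars) in each of the 14 libraries; right, Aes TPM divided by the summed TPM of Tle1, Tle2, Tle3 and Tle4 (points are libraries, bar the mean, whisker the SD). The ratio lies between 0.0909 and 0.410 at E9.25 and between 0.993 and 1.47 at E10.5, with the Gli3-/- libraries below the WT libraries at both stages.

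Differences between groups were fitted with limma on log2(TPM + 1) over all genes with at least 1 TPM in at least 3 of the libraries compared, and a gene was called at a Benjamini-Hochberg adjusted p under 0.05. All 6 members passed this filter in all 4 comparisons, and at E9.25 Tle2 passed with exactly 3 libraries, 2 of them WT. On this scale a difference understates the change of genes near 1 TPM, which applies to Tle2 and Tle6. Comparisons that share a group, such as genotype at E10.5 and stage in WT, share its libraries.

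At E9.25 the means of Tle1, Tle3 and Tle4 were higher in Gli3-/- than in WT limb buds and those of the chromosome 10 genes lower, none past the threshold. The log2 difference, Gli3-/- minus WT, was 0.68 (SE 0.16, 95% interval 0.33 to 1.03) for Tle1, 0.69 (SE 0.24, 0.14 to 1.23) for Tle3 and 0.48 (SE 0.24, −0.05 to 1.01) for Tle4. It was −0.50 (SE 0.17, −0.88 to −0.12) for Aes, −0.54 (SE 0.26, −1.11 to 0.03) for Tle2 and −1.22 (SE 0.29, −1.86 to −0.58) for Tle6. None of the 6 was called, and the calls over all 14760 genes tested were few, 0.108% higher and 0.0271% lower. An unadjusted p under 0.05 was found for 4 of the members. The share of all genes with such a p was not counted, so nothing is read from the 4. Every mutant library was above every WT library for Tle1 alone, against 9.97% of all genes tested, and below for Aes and Tle6, against 3.36% of all genes tested.

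The median gene was 0.23 higher in Gli3-/- at this stage on the log2 scale, so relative to it the differences were 0.46 for Tle1, 0.46 for Tle3, 0.26 for Tle4, −0.72 for Aes, −0.77 for Tle2 and −1.45 for Tle6. When the library labelled E9.25 WT replicate 2 was left out, the directions were unchanged for all 6, with Tle3 at 0.42, Tle4 at 0.30 and Tle2 at −0.78. In 1 model of all 14 libraries, Aes, Tle1 and Tle6 were called. Flank and lateral plate markers (Foxf1, Gata4, Wt1, Osr1, Gata6, Hand1) differed between the same groups, with a summed level of 19.9 to 55.4 TPM in WT and 78.2 to 212 TPM in Gli3-/- libraries, where 3 of 6 were called higher. The marker sums of endothelium (42.9 to 69.4 TPM in WT, 84.3 to 131 TPM in Gli3-/-), neural tube and neural crest (6.10 to 12.5 TPM in WT, 3.36 to 4.97 TPM in Gli3-/-) and muscle progenitors (given above) did not overlap either, and no tested marker of these 3 lists was called. The neural sum followed 1 gene, Tubb3 (8.95 ± 3.36 TPM in WT, 3.37 ± 0.907 TPM in Gli3-/-). The 4 other neural markers were under 1 TPM in each of these libraries. Of the muscle list only Lbx1 was tested. The part of these lists in the values of the family was not tested.

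At E10.5 the chromosome 10 genes were lower in Gli3-/- limb buds. The log2 difference was −1.30 (SE 0.16, −1.65 to −0.95) for Tle2, −0.59 (SE 0.12, −0.85 to −0.33) for Tle6 and −0.47 (SE 0.11, −0.71 to −0.23) for Aes. The other members lay near 0, with Tle1 at 0.01 (SE 0.11, −0.24 to 0.27), Tle3 at 0.02 (SE 0.13, −0.27 to 0.32) and Tle4 at 0.20 (SE 0.09, −0.01 to 0.41). Aes, Tle2 and Tle6 were called lower, 3 of 6 members, where 2.93% of the 15654 genes tested were called lower, and in the same 3 genes every mutant library was below every WT library, as in 11.5% of all genes tested. These values are among those the family was proposed on, so nothing is read from the excess.

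The call of Tle2 held in each of the 8 alternative fits and without each of the 7 libraries in turn. Those of Aes and Tle6 were lost with no filter on low values and in 1 model of all 14 libraries, and that of Aes also in a fit without a trend. Without any 1 of E10.5 WT replicates 1 and 4 and Gli3-/- replicates 1 and 3, Aes and Tle6 both lost their calls. Aes lost it also without WT replicate 3 and Tle6 without Gli3-/- replicate 2, and over these libraries the difference of Aes was −0.48 to −0.36 and that of Tle6 −0.63 to −0.52. Marker sums that did not overlap between the same groups were those of limb mesenchyme (715 to 852 TPM in WT, 593 to 637 TPM in Gli3-/-), muscle progenitors (29.4 to 37.1 TPM in WT, 19.8 to 28.5 TPM in Gli3-/-), surface ectoderm (194 to 229 TPM in WT, 279 to 310 TPM in Gli3-/-) and somite (16.9 to 41.5 TPM in WT, 6.31 to 11.2 TPM in Gli3-/-). The limb mesenchyme list was split, with Prrx1 (−0.56), Msx1 (−0.86) and Twist1 (−0.65) called lower and Hand2 (1.90) called higher. Tbx5 (0.13) was not called. The surface ectoderm and somite sums each followed 1 gene. Fgf8, the signal of the apical ridge, was at 59.1 ± 7.66 TPM (SD, n = 4) in WT and 153 ± 20.05 TPM (SD, n = 3) in Gli3-/- libraries and was the 1 of 6 ectoderm markers called, beside a list median of −0.18. Pax1 was at 22.4 ± 12.3 and 0.103 ± 0.0906 TPM, while Meox1, the other somite marker tested, differed by 0.16 and was not called. Their part in the lower values of Aes, Tle2 and Tle6 was not tested.

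Between the stages Aes had the largest difference of the family in both genotypes. In WT, E10.5 minus E9.25 was 2.94 (SE 0.13, 2.65 to 3.23) for Aes, 1.87 (SE 0.24, 1.33 to 2.40) for Tle2, 1.42 (SE 0.13, 1.13 to 1.71) for Tle1 and 0.44 (SE 0.16, 0.07 to 0.81) for Tle4. These 4 were called higher, where 38.1% of the 15444 genes tested were called higher and 10.6% lower, and the groups did not overlap for the same 4 genes, as for 41.5% of all genes tested. Tle3 at 0.29 (SE 0.21, −0.19 to 0.78) and Tle6 at 0.33 (SE 0.18, −0.09 to 0.74) were not called.

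The median gene was 0.34 higher at E10.5 in WT, and relative to it Tle4 stood at 0.10, Tle3 at −0.05 and Tle6 at −0.01, against 2.60 for Aes, 1.53 for Tle2 and 1.08 for Tle1. With median-of-ratios scaling Tle3 became −0.07, and with quantile normalization Tle6 became −0.20. Tle4, at the edge of the threshold, lost its call without any 1 library other than E9.25 WT replicate 1, with differences of 0.26 to 0.48, and under both other scalings, at 0.10 (median-of-ratios) and 0.04 (quantile). It was also lost with a pseudocount of 0.1 (0.47) and, at an unchanged difference, with no filter, without a trend and in 1 model of all 14 libraries. Tle6 gained one without E9.25 WT replicate 3, at 0.52. When the library labelled E9.25 WT replicate 2 was left out, Aes was at 2.97, Tle2 at 1.63, Tle1 at 1.36 and Tle4 at 0.26. The flank markers fell between the WT stages too, from 19.9 to 55.4 TPM to 6.97 to 10.2 TPM in sum, with 4 of the 5 tested called lower and Osr1 called higher. The muscle progenitor markers rose, from 2.22 to 3.72 TPM to 29.4 to 37.1 TPM in sum, with 3 of 3 called higher. The part of the flank and muscle lists in the differences of the family was not tested.

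In Gli3-/- limb buds the same difference was 2.97 (SE 0.14, 2.67 to 3.27) for Aes, 1.11 (SE 0.18, 0.70 to 1.52) for Tle2, 0.96 (SE 0.25, 0.41 to 1.50) for Tle6 and 0.75 (SE 0.13, 0.47 to 1.04) for Tle1. These 4 were called higher and did not overlap between the stages, against 15.8% of the 15434 genes tested that were called higher, 9.17% that were called lower and 22.3% whose E10.5 libraries all lay above the E9.25 libraries. Tle3 was at −0.37 (SE 0.19, −0.78 to 0.04) and Tle4 at 0.16 (SE 0.20, −0.28 to 0.60). Tle6 lost its call without E10.5 Gli3-/- replicate 1 (0.92) or 2 (0.93) or with no filter, and Tle3 gained one without E9.25 Gli3-/- replicate 1 (−0.51) or with median-of-ratios scaling (−0.45). The flank markers fell with stage here as well, from 78.2 to 212 TPM to 7.35 to 19.4 TPM in sum, and 5 of the 6 tested were called lower. The muscle progenitor markers rose, from 0.33 to 1.27 TPM to 19.8 to 28.5 TPM in sum, with 3 of 3 called higher. The sums of somite (15.1 to 21.3 TPM at E9.25, 6.31 to 11.2 TPM at E10.5) and of neural tube and neural crest (3.36 to 4.97 TPM, then 9.57 to 15.5 TPM) did not overlap between the stages either. The neural sum followed 1 gene, Tubb3, while the 4 other neural markers were under 1 TPM in every library of both groups. The part of these lists in the differences was not tested.

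**Figure D3:**
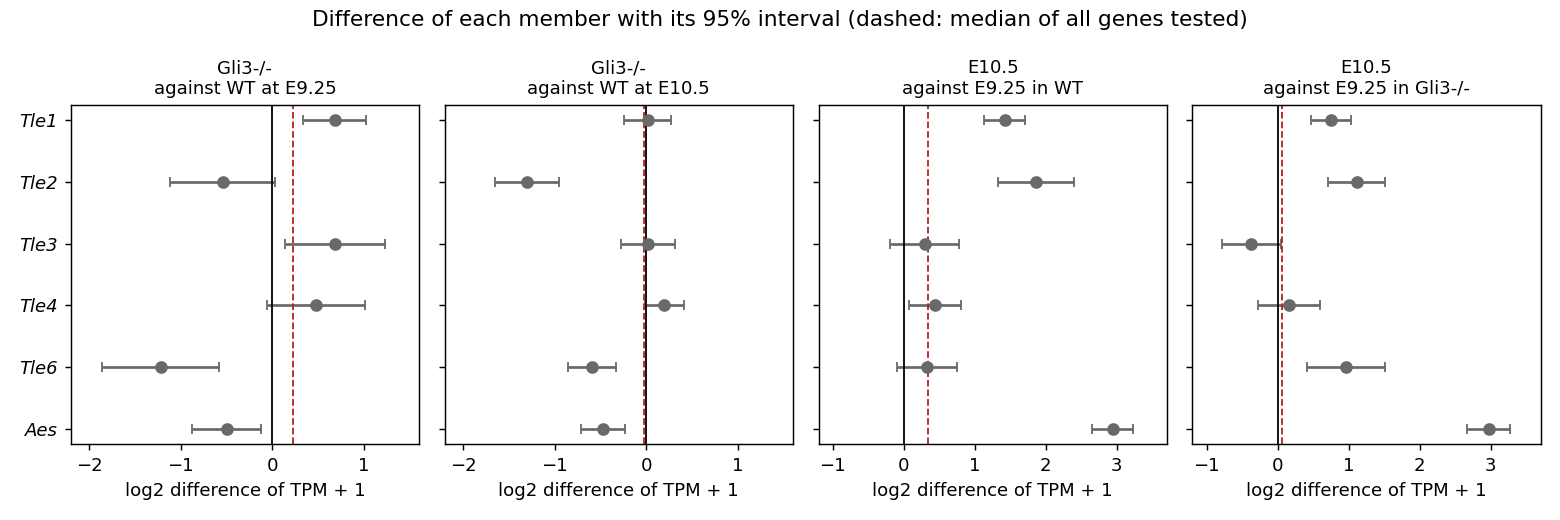
Log2 difference of TPM + 1 (x axis) of each gene in the 4 comparisons, with 95% intervals from limma; the solid line is 0 and the dashed line the median of all genes tested (0.23, −0.02, 0.34 and 0.06 from left to right). Aes, Tle2 and Tle6 lie left of 0 in both Gli3-/- panels, and Aes lies at 2.94 and 2.97 in the stage panels.

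The effect of Gli3 loss was also compared between the stages, in 1 model of the 4 groups. The difference of the differences, E10.5 minus E9.25, was −0.67 (SE 0.17) for Tle1, −0.76 (SE 0.30) for Tle2, −0.66 (SE 0.31) for Tle3, −0.28 (SE 0.27) for Tle4, 0.63 (SE 0.32) for Tle6 and 0.03 (SE 0.19, 95% interval −0.38 to 0.44) for Aes. No member was called, where 2.13% of the 16368 genes tested were called. An unadjusted p under 0.05 was found for 3 members, and its share over all genes was not counted. Tle1 was called without E9.25 WT replicate 1 (−0.66) or without E10.5 WT replicate 2 (−0.74). The median of all genes was −0.24 in this comparison.

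Genes around the chromosome 10 members were set beside them, a comparison chosen after the data were seen. Within 100 kb of Aes, Tle2 and Tle6, 8 other genes were tested. Their Gli3-/- minus WT differences at E9.25 spanned −0.22 to 0.50, with the smallest limma adjusted p = 0.217, and those at E10.5 spanned −0.45 to 0.13, with the smallest limma adjusted p = 0.209, that of Ankrd24 (−0.45, SE 0.18). For E10.5 against E9.25 they ran from 0.09 to 0.59 in WT, where Sirt6, a deacetylase gene, was called (0.40, SE 0.12, limma adjusted p = 0.0218), and from −0.24 to 0.44 in Gli3-/- limb buds. Whether the members differ from these neighbours was not tested. The members also differ in span, so the medians of all genes by span were set beside them. At E10.5, Gli3-/- minus WT was −0.03 for genes under 20 kb, −0.01 for 20 to 40 kb and −0.02 for 40 kb and over. At E9.25 it was 0.15, 0.24 and 0.36. For E10.5 minus E9.25 the medians were 0.22, 0.35 and 0.54 in WT and 0.02, 0.09 and 0.12 in Gli3-/- limb buds. In WT, Tle3 (0.29) and Tle4 (0.44) lay under the median of their class, 40 kb and over, and Tle1 (1.42) above it. Between the genotypes at E9.25, Tle1 (0.68), Tle3 (0.69) and Tle4 (0.48) lay above that class's median and under its 95th percentile of 0.90. Aes (−0.50), Tle2 (−0.54) and Tle6 (−1.22) lay under the 5th percentile of their class, under 20 kb, which was −0.36. The part of gene span in the E9.25 values and in the Aes ratio was not tested.

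**Figure D4:**
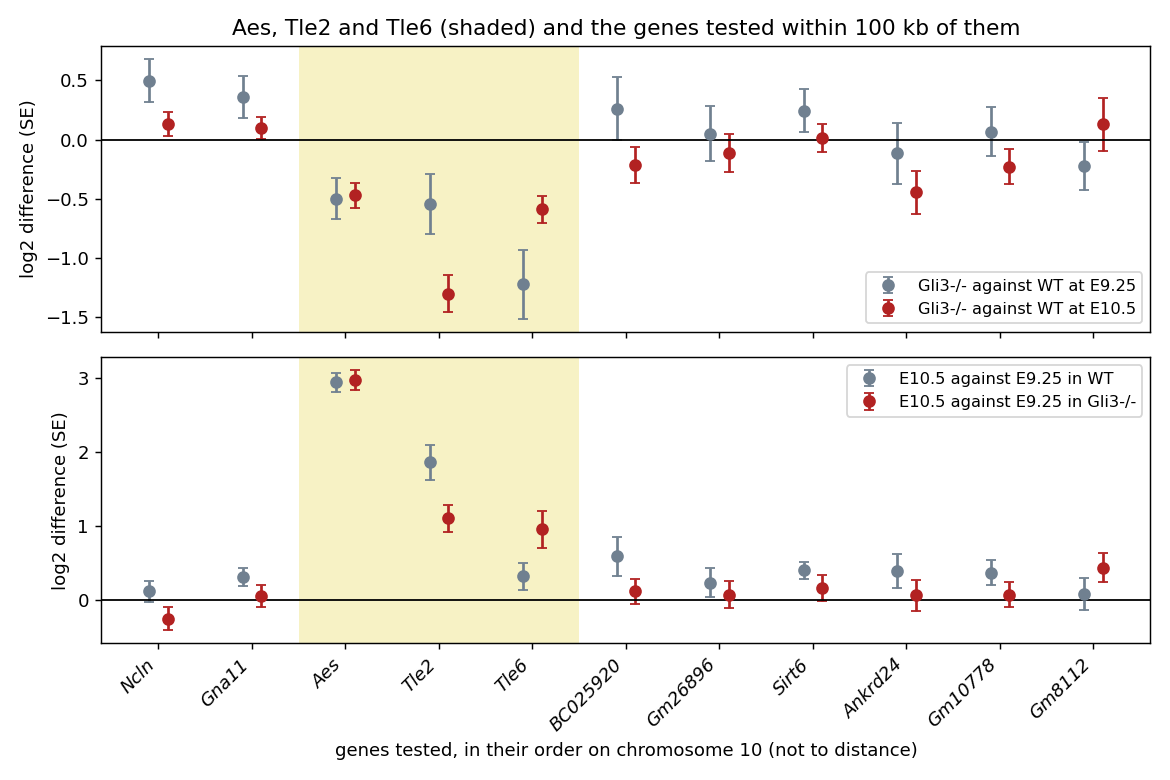
Log2 difference with its SE (y axis) of Aes, Tle2 and Tle6 (shaded) and of the 8 other genes tested within 100 kb, in gene order; upper panel, Gli3-/- against WT at each stage, lower panel, E10.5 against E9.25 in each genotype. The shaded genes lie between −1.30 and −0.47 in the upper panel, and the others between −0.45 and 0.50.

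Among 33 transcription factors known to bind TLE proteins, 15 were tested in each comparison of 2 groups. At E9.25, Tbx15, a T-box factor of limb and skin, fell in Gli3-/- from 5.11 ± 1.66 (SD, n = 3) to 0.694 ± 0.351 TPM (SD, n = 4), a log2 difference of −1.84 (limma adjusted p = 0.034), and the other 14 did not pass, with a list median of 0.33 beside 0.23 for all genes, of which 0.108% were called higher and 0.0271% lower. Tbx15 did not pass without E9.25 WT replicate 2 or 3 or Gli3-/- replicate 1, 2 or 3 (limma adjusted p = 0.0719 to 0.195), nor with no filter (limma adjusted p = 0.284) or a pseudocount of 0.1 (limma adjusted p = 0.0786). At E10.5, 3 fell and 2 rose of 15, where 2.93% of all genes were called lower and 1.84% higher. Gsc, the homeobox gene goosecoid, fell from 27.9 ± 6.24 (SD, n = 4) to 7.53 ± 1.78 TPM (SD, n = 3), a log2 difference of −1.76 (limma adjusted p = 0.00136). Runx2, a regulator of bone formation, fell from 3.49 ± 1.71 to 0.405 ± 0.103 TPM, a log2 difference of −1.60 (limma adjusted p = 0.0126, 0.053 without Gli3-/- replicate 3 and 0.0669 with no filter). Msx1, a homeobox gene of limb mesenchyme, fell from 199 ± 26.7 to 109 ± 9.33 TPM, a log2 difference of −0.86 (limma adjusted p = 0.0027). Prdm1, which encodes BLIMP1, rose from 1.55 ± 0.159 to 3.20 ± 0.130 TPM, by 0.72 (limma adjusted p = 0.0108, and 0.198 in 1 model of all 14 libraries). Hes1, a Notch target that encodes a WRPW-motif repressor, rose from 33.5 ± 0.775 to 44.0 ± 4.59 TPM, by 0.38 (limma adjusted p = 0.0306), and passed without 1 library only when that was Gli3-/- replicate 3. Hes1 did not pass in 1 model, without a trend or with no filter (limma adjusted p = 0.499, 0.0528 and 0.0639).

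With stage, the TCF/LEF genes, whose products recruit TLE proteins in the absence of beta-catenin, split in both genotypes. In WT, Tcf7 fell from 104 ± 9.99 (SD, n = 3) to 50.7 ± 3.25 TPM (SD, n = 4), a log2 difference of −1.02 (limma adjusted p = 0.000196), and Lef1 from 96.4 ± 25.8 to 52.7 ± 5.28 TPM, a log2 difference of −0.83 (limma adjusted p = 0.00515). Tcf7l2 rose from 9.04 ± 2.77 to 36.9 ± 6.05 TPM, by 1.94 (limma adjusted p = 0.000322), and Tcf7l1, chosen after its values were seen, rose from 20.4 ± 5.88 to 58.1 ± 8.45 TPM, by 1.49 (limma adjusted p = 0.000761). In Gli3-/- limb buds the differences were −1.18 for Tcf7 (limma adjusted p = 0.000727), −1.38 for Lef1 (limma adjusted p = 0.000242), 1.57 for Tcf7l2 (limma adjusted p = 0.000128) and 1.10 for Tcf7l1 (limma adjusted p = 0.00121). Of the 15 tested, 8 rose and 3 fell in WT, beside 38.1% and 10.6% of all genes, and 6 rose and 7 fell in Gli3-/- limb buds, beside 15.8% and 9.17% of all genes.

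Of the T-box members of the list, Tbx15 and Tbx18 rose with stage in both genotypes, Tbx15 by 4.12 in WT (limma adjusted p = 2.0e-05) and 6.27 in Gli3-/- limb buds (limma adjusted p = 3.48e-08), and Tbx18 by 2.61 (limma adjusted p = 4.79e-05) and 2.58 (limma adjusted p = 3.48e-05). Tbx20, a cardiac T-box gene, fell in Gli3-/- limb buds, with a log2 difference of −2.07 (limma adjusted p = 0.00169), from 3.68 ± 1.94 to 0.0172 ± 0.0299 TPM. Gsc rose by 2.82 in WT (limma adjusted p = 3.92e-05) and 1.94 in Gli3-/- limb buds (limma adjusted p = 4.37e-05), and Prdm1 fell in both, with differences of −2.14 (limma adjusted p = 0.00037) and −1.81 (limma adjusted p = 0.000349). Runx2 rose in WT by 1.73 (limma adjusted p = 0.00285). In Gli3-/- limb buds Hes6 rose by 1.67 (limma adjusted p = 1.53e-05) and Hhex fell by 0.67 (limma adjusted p = 0.0233, 0.0711 and 0.116 without E10.5 Gli3-/- replicate 1 or 3, 0.0858 in 1 model and 0.0641 with no filter).

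All 9 enzyme genes whose products act with or on TLE proteins were tested (the deacetylase genes Hdac1, Hdac2 and Hdac3, the kinase genes Hipk2, Csnk2a1 and Csnk2a2 with the subunit gene Csnk2b, and the ubiquitin ligase genes Xiap and Rnf6). Limma called 0 of 9 between the genotypes at E9.25 (1 at an unadjusted p under 0.05) and 0 of 9 at E10.5 (2 at an unadjusted p under 0.05). The shares of all genes at an unadjusted p under 0.05 were not counted. Their summed level was 842 to 898 TPM in E9.25 WT, 858 to 1016 TPM in E9.25 Gli3-/-, 984 to 1068 TPM in E10.5 WT and 989 to 1042 TPM in E10.5 Gli3-/- libraries. In WT, 3 of 9 rose with stage, where 38.1% of all genes did: Xiap by 0.88 (limma adjusted p = 0.0162), Hdac3 by 0.46 (limma adjusted p = 0.00318) and Hdac1 by 0.25 (limma adjusted p = 0.023). The median gene was 0.34 higher, and with median-of-ratios scaling Hdac1 turned to −0.12 and Hdac3 to 0.10. Hdac1 did not pass without E9.25 WT replicate 2 or E10.5 WT replicate 1, 3 or 4 (limma adjusted p = 0.0536 to 0.067), nor without a trend (0.0628). In Gli3-/- limb buds 1 of 9 rose, where 15.8% of all genes did. This was Hdac3, by 0.36 (limma adjusted p = 0.0432), but not without E9.25 Gli3-/- replicate 3 or 4 or any of the E10.5 Gli3-/- libraries (limma adjusted p = 0.0728 to 0.175), without a trend (0.0708) or with no filter (0.0631).

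Of 15 Wnt target genes, on which TCF/LEF factors and TLE proteins act together, 14 or 15 were tested. At E9.25 limma called 0 of 14 between the genotypes (4 at an unadjusted p under 0.05, a share not counted over all genes). At E10.5, 1 rose and 2 fell of 15 in Gli3-/- limb buds, beside 1.84% and 2.93% of all genes. Ccnd1, which encodes cyclin D1, rose from 104 ± 4.69 (SD, n = 4) to 157 ± 5.68 TPM (SD, n = 3), by 0.59 (limma adjusted p = 0.00109). Dkk1, a secreted Wnt inhibitor gene, fell from 7.16 ± 0.932 to 3.48 ± 1.06 TPM, a log2 difference of −0.88 (limma adjusted p = 0.0185), and Axin2, the feedback inhibitor gene, from 43.3 ± 3.48 to 31.3 ± 1.11 TPM, a log2 difference of −0.45 (limma adjusted p = 0.0147). Dkk1 did not pass without E10.5 WT replicate 1 or 4 or Gli3-/- replicate 1 or 2 (limma adjusted p = 0.0531 to 0.0689), nor Axin2 without WT replicate 1 or Gli3-/- replicate 1 or 3 (limma adjusted p = 0.0503 to 0.0765). Dkk1 also did not pass with no filter (limma adjusted p = 0.0775), nor Axin2 in 1 model (limma adjusted p = 0.362).

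With stage, 2 Wnt targets rose and 5 fell of 14 in WT, beside 38.1% and 10.6% of all genes, and 1 rose and 8 fell of 14 in Gli3-/- limb buds, beside 15.8% and 9.17%. The list's median difference was 0.04 in WT and −0.54 in Gli3-/- limb buds, beside 0.34 and 0.06 for all genes. Cdx1, a caudal-type homeobox gene, fell with differences of −3.69 in WT (limma adjusted p = 2.71e-05) and −3.82 in Gli3-/- limb buds (limma adjusted p = 6.48e-07), Myc with −1.66 (limma adjusted p = 0.000277) and −2.06 (limma adjusted p = 9.36e-06), Bambi with −1.34 (limma adjusted p = 6.14e-05) and −1.54 (limma adjusted p = 5.97e-06), and Sp5 with −0.69 (limma adjusted p = 0.00914) and −1.04 (limma adjusted p = 0.00127). Nkd2 rose by 1.80 (limma adjusted p = 0.000225) and 2.09 (limma adjusted p = 8.56e-06). Nkd1 fell by 1.65 in Gli3-/- limb buds (limma adjusted p = 6.54e-05) and fell by 0.47 in WT (limma adjusted p = 0.0472), where it passed without 1 library only when that was E9.25 WT replicate 3 and did not pass without a trend, with no filter or with a pseudocount of 0.1 (limma adjusted p = 0.0577, 0.0868 and 0.0505). Lgr5, a receptor gene of the pathway, rose in WT by 0.95 (limma adjusted p = 0.00597) from 0.263 ± 0.244 to 1.44 ± 0.405 TPM.

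The genes whose pattern came closest to each member were found as those with the smallest root mean square (RMS) difference of log2(TPM + 1) over the 14 libraries, each gene centred on its own mean. For Aes they were Pax3, one of the muscle progenitor markers above (RMS difference 0.196), Ldhb (0.255) and Gm13111 (0.260). For Tle2 they were Fap (0.240), Glrb (0.245) and Dock10 (0.249), and for Tle6 E130114P18Rik (0.218), Cd164l2 (0.303) and Calb2 (0.305). The other members had closer neighbours: Zdhhc9 (0.137), Grn (0.138) and Esyt1 (0.141) for Tle1, Espl1 (0.099), Khsrp (0.104) and Uhrf1bp1 (0.111) for Tle3, and Hic2 (0.083), Zc3h7b (0.095) and Cep120 (0.099) for Tle4. A gene near or under 1 TPM is flattened by the added 1. This applies to Pax3, at 0.939 and 0.196 TPM in E9.25 WT and Gli3-/- but 12.8 and 8.18 TPM at E10.5. It applies as well to Gm13111, at 0.075 TPM in E9.25 WT. Their closeness to Aes is one of log2(TPM + 1), not of fold change in TPM. Fap and Dock10 beside Tle2, and E130114P18Rik, Cd164l2 and Calb2 beside Tle6, also had group means under 1 TPM. The libraries behind each likeness are the same 14.

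Within the family, the smallest RMS difference was that between Tle3 and Tle4 (0.258), followed by Tle1 and Tle4 (0.444), Tle2 and Tle6 (0.592) and Tle1 and Tle3 (0.599). Aes was 0.802 from Tle2, its nearest in the family, and 1.65 from Tle3, its farthest. None of these pairs was among the 3 closest genes of either member. An RMS difference of centred values is small between any genes that vary little, so the ranks among all genes compared are given too. Tle4 was 1427th closest to Tle3, and Tle3 was 3446th closest to Tle4. Tle2 was 200th closest to Aes, and Aes was 3226th closest to Tle2. Tle6 was 457th closest to Tle2, and Tle2 was 1735th closest to Tle6.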

How the data were processed

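Gene tables of the 14 RNA-seq libraries were used; the other assays of the series were not used here. The authors aligned single-end reads of 100 bases with HISAT2 and deposited TPM, FPKM and a coverage signal for each gene of each library. The program that made the tables and its annotation are not given in the sources used here, and mm10 is the build in the processing notes. The authors tested counts with DESeq2; the deposited TPM are no counts, so limma 3.58.1 (R 4.3.3, eBayes with a trend, two-sided) was applied to log2(TPM + 1) of genes with at least 1 TPM in at least 3 of the libraries compared. Adjustment was by Benjamini-Hochberg over all genes tested, with a threshold of 0.05, and the code was tested on simulated data. FPKM gave the Aes ratio a second time, and coverage divided by FPKM the estimated depth, which limits the precision of genes near 1 TPM. The titles number E10.5 Gli3-/- replicates 1 to 3, as used here. The members and the lists (3 partner lists of 57 genes, 8 marker lists) were chosen with earlier results of these data known. The text names all members, up to 5 called genes for each partner list, comparison and direction with the largest difference, and the 3 genes most like each member. The alternatives tried were 0.1 as pseudocount, no filter, a minimum of 5 TPM, eBayes without a trend, median-of-ratios and quantile scaling, a replicate block, 1 model of all 14 libraries and leaving out each library. Figures were drawn with matplotlib 3.10.9.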

Additional observations from a re-analysis of the deposited data

Results flagged for a closer look

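No library stood apart for a member of the family: in the 14 sets of 4 libraries examined (the 6 genes and the Aes ratio, in each group of 4), the gap of the lowest or highest value to the rest stayed under the 95% limit. Groups of 3 were not examined in this way.

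For 3 partner genes the effect of Gli3 loss differed between the stages by the limma interaction test. For Tbx15, the effect at E10.5 minus that at E9.25 was 2.15 on the log2 scale (SE 0.28, limma adjusted p = 0.000985), from an early difference of −1.84 and a later one of 0.31, and it passed without each of the 14 libraries. For Runx2 it was −1.49 (SE 0.35, limma adjusted p = 0.04), and it passed without 1 library in 3 of 14 cases (limma adjusted p = 0.0525 to 0.117 in the others). Runx2 was not tested between the genotypes at E9.25, where its WT mean was 0.292 TPM, so no early difference is given. Its interaction did not pass with a pseudocount of 0.1, with no filter or with quantile normalization (limma adjusted p = 0.0848, 0.0808 and 0.0653). For Nkd1 the interaction was −1.18 (SE 0.25, limma adjusted p = 0.0232), from an early difference of 0.83 and a later one of −0.35. It passed in 6 of 14 cases (limma adjusted p = 0.0536 to 0.0879 in the others) and did not pass with no filter (limma adjusted p = 0.0579). When the library labelled E9.25 WT replicate 2 was left out, the values were −1.41 for Runx2 (limma adjusted p = 0.0914) and −1.14 for Nkd1 (limma adjusted p = 0.0554).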

How the results depend on the processing

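Of 473 values of members under alternatives, 446 moved by less than 1 SD, 27 moved by more, and no called difference changed sign (12 uncalled ones did). At E9.25, limma called 3 members (Aes, Tle1, Tle6) in 1 model of all 14 libraries and 0 otherwise. In the fit as reported 4 had an unadjusted p under 0.05, a share not counted over all genes. Partner genes called there (1 as reported) were 0 with a pseudocount of 0.1 or with no filter. They were also 0 with a minimum of 5 TPM, where Tbx15 leaves the test. There were 2 with the replicate block, 9 in 1 model and 0 to 2 without 1 library. At E10.5, 1 of the 3 members remained called with no filter, with the replicate block or in 1 model, and 1 to 3 without 1 library; partner genes (8 as reported) were 5 with no filter, 2 with the replicate block, 5 in 1 model and 5 to 7 without 1 library. With a minimum of 5 TPM, 2 of 4 members were called between the stages in Gli3-/-, where Tle2 and Tle6 leave the test. Without 1 library, 3 to 4 members and 18 to 22 partner genes were called between the stages in WT, 3 to 5 and 17 to 23 in Gli3-/-, and 0 to 1 members in the interaction. The Aes ratio without 1 library was 0.243 to 0.356, 0.118 to 0.142, 1.45 to 1.47 and 1.01 to 1.10 in E9.25 WT, E9.25 Gli3-/-, E10.5 WT and E10.5 Gli3-/-, and FPKM gave the ratio of TPM by construction. Hdac1 turned from 0.25 to −0.12 between the WT stages with median-of-ratios scaling. Same-numbered libraries of 2 groups did not deviate together (mean r of −0.184, −0.054, −0.036 and 0.038 in the 4 comparisons), so the numbers are only names. Causes of these changes were not tested.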
